A study of Mus musculus with 4 samples.

Results

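Exonic regions were those places in a table of captured methylated DNA whose deposited location was an exon, and they numbered 1658 of 10000 regions (16.6%), under 1518 Ensembl genes. They were grouped by the exon number that the table gives: 104 lay in exon 1, 216 in exon 2, 442 in exons 3 to 5 and 896 in exons over 5. The DNA came from 4 populations of CD4+ T cells of female Balb/c mice, with 1 library each, so no difference between populations has a replicate check and no test between populations was possible. Naive T cells were CD3+CD4+ with high CD45RB, Th1 cells and Th17 cells were both CD45RB low and told apart by the cytokine they secreted, interferon gamma alone for Th1 and IL-17A alone for Th17, and regulatory T cells (Treg) were CD3+CD4+ and bright for CD25. All were stimulated for 3 h with PMA (10 ng/ml) and ionomycin (500 ng/ml), Treg cells after their sort and the others before it. The labels do not say how many mice were pooled for a library.

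The MethylCap kit captures DNA through a protein domain that binds methylated CpG, the cytosine-guanine pair at which mammals place most of their DNA methylation. The signal of a place therefore rises with both its methylation and its number of CpGs. Exon 1 lies at the start of the transcript and often belongs to an unmethylated CpG-rich promoter, whereas exons further inside a gene tend to be methylated and hold more CpGs than the introns around them. The identity of the sorted cells could not be checked here, since no expression was measured.

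All 10000 Th17 values in the table are 0, so every exonic region is a place with methylated DNA in at least 1 of the other 3 libraries and none listed for Th17. The comparisons below are therefore among naive, Th1 and Treg cells. Values are reads multiplied by 1 constant per library, and 1 read was worth 0.996 in the naive, 1.68 in the Th1 and 0.352 in the Treg library. Over the exonic regions these libraries held 5465, 3379 and 13558 reads, a median of 3, 2 and 8 per region. Intervals are 95% and cover counting error only. PCR reads are not independent molecules, and a lower value in a mixed population cannot be told apart from the same loss in a smaller share of its cells.

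The letters CG, the pairs that the capture reads when methylated, differ widely in number near the starts of genes with exonic regions. The 250 bases before the start site are printed here for 3 of the 5 genes with the highest values in exon 1 and for Il17a, whose exon 2 was captured, from RefSeq on build GRCm38.p6, 5′ to 3′ on the gene's strand with each CG in capitals. Each of the 4 genes has 1 start in that table. The deposited coordinates are in mm9, so the distance from these windows to the captured regions was not computed, and the sequence of the captured regions is not analysed here.
Zdhhc7, chr8:120101473-120101722, minus strand: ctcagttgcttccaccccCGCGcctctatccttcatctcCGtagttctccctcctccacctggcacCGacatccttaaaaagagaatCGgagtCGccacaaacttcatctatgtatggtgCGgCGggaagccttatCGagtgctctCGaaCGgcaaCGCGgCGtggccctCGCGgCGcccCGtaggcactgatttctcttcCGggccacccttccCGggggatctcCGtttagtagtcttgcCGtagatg
Fsip2, chr2:82943384-82943633, plus strand: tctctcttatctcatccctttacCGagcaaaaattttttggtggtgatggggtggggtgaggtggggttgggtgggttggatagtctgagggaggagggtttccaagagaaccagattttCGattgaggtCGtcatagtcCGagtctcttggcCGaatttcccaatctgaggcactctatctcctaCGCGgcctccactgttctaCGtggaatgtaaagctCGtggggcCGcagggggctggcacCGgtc
Gm7168, chr17:13948123-13948372, plus strand: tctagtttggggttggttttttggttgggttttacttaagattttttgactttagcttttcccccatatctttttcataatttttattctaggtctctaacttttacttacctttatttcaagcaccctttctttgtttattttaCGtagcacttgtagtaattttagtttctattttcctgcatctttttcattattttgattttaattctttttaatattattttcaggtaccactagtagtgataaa
Il17a, chr1:20730655-20730904, plus strand: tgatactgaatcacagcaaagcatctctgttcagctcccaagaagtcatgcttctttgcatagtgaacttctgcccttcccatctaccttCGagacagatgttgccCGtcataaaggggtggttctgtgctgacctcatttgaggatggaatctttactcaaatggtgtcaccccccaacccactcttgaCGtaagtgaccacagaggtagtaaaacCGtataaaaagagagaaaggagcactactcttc
The Zdhhc7 window holds 22 CGs, that of Fsip2 11, that of Il17a 4 and that of Gm7168 1. Of 32851 RefSeq windows of this length, 92.1% hold at least 1 CG. A comparison of CG number between the exon classes is void, because a window was found for 72.1% of the genes of exon 1, 77.8% of those of exon 2 and 75.3% of those of exons 3 to 5.

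Among the regions listed, the level of captured DNA was close to equal across the exon classes. Each class, like the introns and the promoters, had a median of 13 reads per region over the libraries together. How regions were chosen for the table was not given, so these levels say nothing on exons that are not listed. The median over regions of the mean value of the 3 libraries was 3.15 in exon 1, 3.18 in exon 2, 3.14 in exons 3 to 5 and 3.15 in exons over 5, against 3.05 in the 7865 introns and 3.14 in the 477 promoter regions. Between the lower and upper quartile, values ran from 2.60 to 3.66 in exon 1 and from 2.61 to 3.71 in exons over 5, so the classes overlapped almost wholly. On either side of a class border, exons 5 and 6 had the same median of 3.06, over 105 and 104 regions. Median lengths were 249 bp in exon 1, 255 bp in exon 2, 256 bp in exons 3 to 5 and 254.5 bp in exons over 5. The longest exonic region measured 621 bp. The highest exon number was 121 and the median was 6.

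The balance of the libraries was less alike between the classes. In exon 1 the naive library had the highest mean value, 3.52 (interval 3.16 to 3.89), ahead of Th1 at 3.15 (2.72 to 3.63) and Treg at 2.71 (2.53 to 2.91). In exon 2 the order of naive and Th1 turned: Th1 had 3.74 (3.41 to 4.08), naive 3.11 (2.88 to 3.35) and Treg 2.87 (2.74 to 3.01). In exons 3 to 5 the naive and Th1 means were 3.32 (3.15 to 3.49) and 3.41 (3.19 to 3.64), and in exons over 5 they were 3.28 (3.16 to 3.40) and 3.39 (3.24 to 3.55). Treg had the lowest mean in every class, with 2.87 (2.77 to 2.96) in exons 3 to 5 and 2.91 (2.85 to 2.98) in exons over 5. The intervals of naive and Th1 overlapped in each class except exon 2, where they did not.

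**Figure D1:**
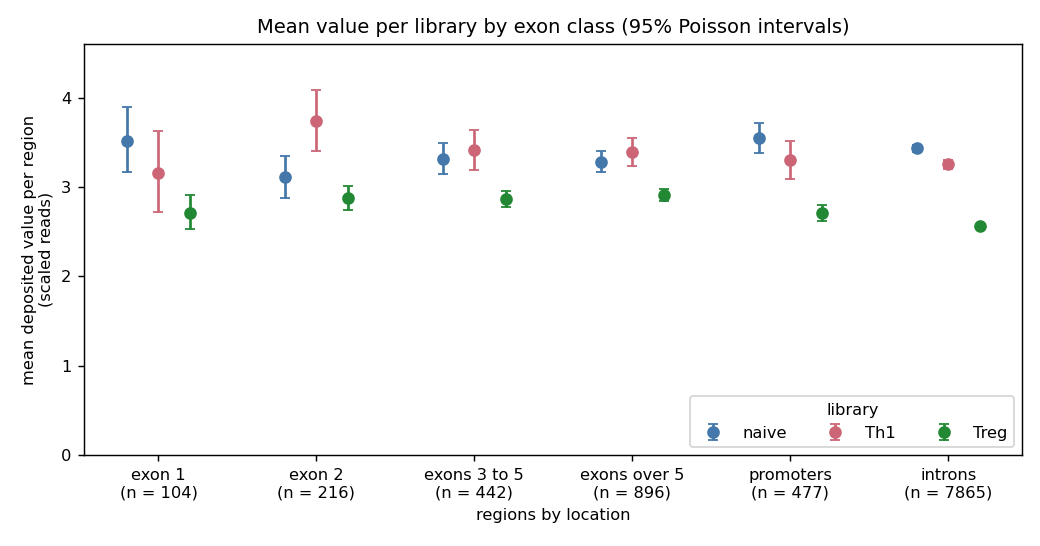
Mean deposited value per region (vertical axis, scaled reads) of the naive, Th1 and Treg libraries in the 4 exon classes, promoters and introns; points are means and bars are 95% Poisson intervals on the summed reads. The Th1 mean lies above the naive mean in exon 2 (3.74 against 3.11) and below it in introns (3.26 against 3.43).

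Ratios of summed values restate the same reads. On the log2 scale, Th1 over naive was -0.16 in exon 1 (-0.42 to 0.10), 0.27 in exon 2 (0.09 to 0.44), 0.04 in exons 3 to 5 (-0.08 to 0.16) and 0.05 in exons over 5 (-0.04 to 0.13). Over all regions it was -0.06 (-0.08 to -0.03) and over introns -0.08 (-0.11 to -0.05). Treg over naive was -0.37 in exon 1 (-0.55 to -0.19), -0.11 in exon 2 (-0.24 to 0.02), -0.21 in exons 3 to 5 (-0.30 to -0.12) and -0.17 in exons over 5 (-0.23 to -0.11). Introns stood at -0.42 (-0.44 to -0.40) and promoters at -0.39 (-0.47 to -0.30). Exon 1 thus lay near promoters and introns, and the 3 later classes lay above both. For Th1 over naive and for Treg over naive, the interval of exon 1 overlapped those of the 3 later classes. The classes are therefore ordered by their values only. Treg over Th1 was -0.22 in exon 1, -0.38 in exon 2, -0.25 in exons 3 to 5 and -0.22 in exons over 5, against -0.32 over all regions.

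With libraries brought to equal totals over the table, all regions move to 0 by construction, Th1 over naive becomes -0.10 in exon 1 (-0.36 to 0.15), 0.32 in exon 2 (0.15 to 0.49), 0.10 in exons 3 to 5 (-0.03 to 0.22) and 0.10 in exons over 5 (0.02 to 0.19), and Treg over naive becomes 0.00 in exon 1, 0.26 in exon 2, 0.17 in exons 3 to 5 and 0.21 in exons over 5. The sign of the Treg over naive ratios therefore rests on the authors' scaling, while the distance between the classes does not.

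**Figure D2:**
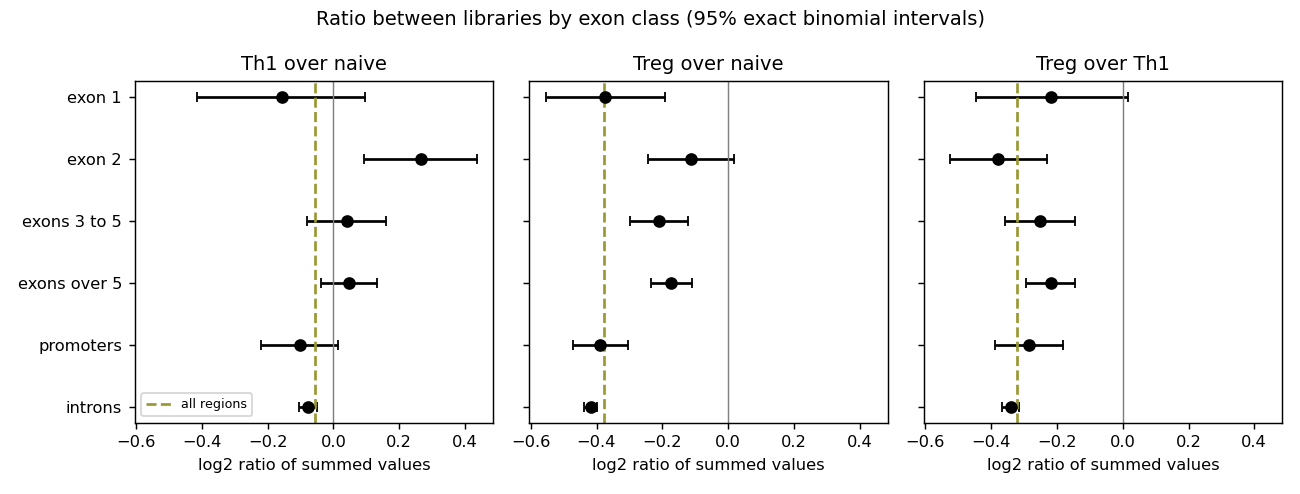
Log2 ratio of summed values (horizontal axis) for the 3 pairs of libraries, by exon class, promoters and introns; points are ratios, bars are 95% exact binomial intervals on reads and the dashed line is the ratio over all 10000 regions. In Treg over naive, exon 1 (-0.37) lies on the dashed line (-0.38) and the later exon classes lie to its right.

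The exonic regions as a whole stood at -0.19 for Treg over naive (-0.23 to -0.14), against -0.42 for introns. Introns of genes that also had an exonic region, 1347 regions of 538 genes, stood at -0.38 (-0.43 to -0.33). The exonic regions were not limited to these 538 genes. Among regions of 200 to 300 bp the values were -0.21 (-0.27 to -0.15) for 938 exonic regions and -0.40 (-0.43 to -0.37) for 4619 introns. Among regions with at least 10 reads they were -0.11 (-0.15 to -0.06) and -0.30 (-0.32 to -0.28). That filter counts the reads of the libraries compared, most of them Treg reads, so passing it depends on the values compared. The intervals of exonic and intronic regions did not overlap in any of these settings, but they hold no error between mice or between libraries, and the difference in CpG content was not tested.

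Exon numbers past 5 showed no steady trend. Treg over naive was -0.20 in exons 6 to 10 (397 regions), -0.10 in exons 11 to 20 (334) and -0.24 in exons over 20 (165). Their intervals, -0.30 to -0.11, -0.21 to 0.00 and -0.38 to -0.09, overlapped. Th1 over naive was 0.13 in exons 11 to 20 (-0.01 to 0.27) and within 0.01 of 0 in the other 2 groups. Exon 5 alone had a Th1 over naive ratio of 0.27 (0.02 to 0.53), as high as exon 2, while exon 4 stood at -0.06 (-0.27 to 0.15).

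Single regions were counted as higher or lower when their values differed at least 2-fold between libraries, with 0.5 added to both values. Th1 was higher than naive in 349 exonic regions (21.0%) and lower in 417 (25.2%), against 19.4% and 29.0% of all regions. Treg was higher than naive in 178 (10.7%) and lower in 270 (16.3%), against 8.33% and 22.2%. Treg was higher than Th1 in 295 (17.8%) and lower in 298 (18.0%), against 17.0% and 21.0%. Most of these shares lie near the background. The widest gap was the share of regions lower in Treg than in naive cells. With libraries at equal totals over the table, Treg was higher than naive in 312 exonic regions (18.8%) and lower in 135 (8.14%), against 15.2% and 12.3% of all regions. Treg was then higher than Th1 in 389 (23.5%) and lower in 197 (11.9%), against 22.6% and 15.2% of all regions. Th1 was higher than naive in 357 (21.5%) and lower in 305 (18.4%), against 19.6% and 21.3%.

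By class, exon 2 had 57 regions (26.4%) higher and 44 (20.4%) lower in Th1 than in naive cells, while exon 1 had 20 (19.2%) and 32 (30.8%). Regions lower in Treg than in naive cells made up 28.8% of exon 1 (30 regions), 13.4% of exon 2 (29), 17.0% of exons 3 to 5 (75) and 15.2% of exons over 5 (136). The share of regions higher in Treg than in Th1 was lowest in exon 2, 11.6% (25 regions), and was 19.3% in exons over 5. At equal table totals, 12 of 104 regions in exon 1 and 17 of 216 in exon 2 were lower in Treg than in naive. So were 39 of 442 in exons 3 to 5 and 67 of 896 in exons over 5, against 12.3% of all regions. Among regions with at least 10 reads, a filter that counts the reads compared, those lower in Treg than in naive numbered 21 in exon 1 and 14 in exon 2. They numbered 42 in exons 3 to 5 and 92 in exons over 5. Shares of the regions passing this filter were not computed by class. Th1 against naive at equal totals gave 20 higher and 27 lower in exon 1, and 59 and 30 in exon 2. Exons 3 to 5 had 82 and 70, and exons over 5 had 196 and 178, against 19.6% and 21.3% of all regions. More regions were thus higher than lower in each class but exon 1.

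**Figure D3:**
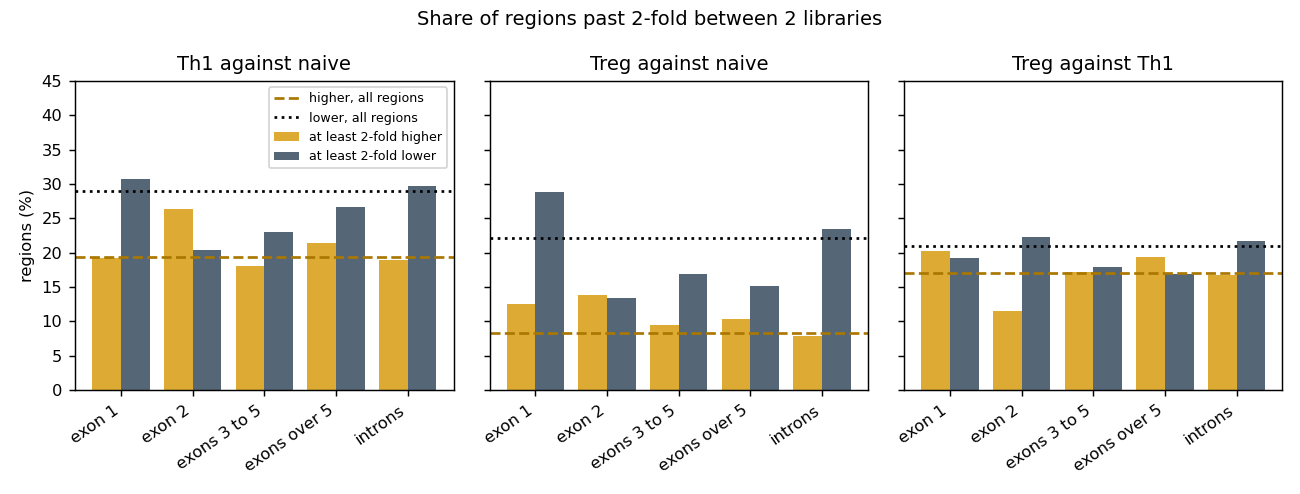
Share of regions (vertical axis, %) at least 2-fold higher or lower in 1 library than in another, by exon class and in introns; dashed and dotted lines give the shares over all 10000 regions. At the deposited scaling plotted here, exon 2 has more regions higher than lower in Th1 against naive (26.4% against 20.4%), and exon 1 has the highest bar of regions lower in Treg than in naive (28.8%).

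Regions in which a library stood 2-fold above both others were also counted. Th1 did so in 30 regions of exon 2 (13.9%) and 6 of exon 1 (5.77%), against 9.10% of all regions. Naive did so in 15 regions of exon 1 (14.4%) and 16 of exon 2 (7.41%), against 11.2%. Treg did so in 0 regions of exon 1, 7 of exon 2 (3.24%), 10 of exons 3 to 5 (2.26%) and 26 of exons over 5 (2.90%), against 1.42%. At the background share, exon 1 would hold fewer than 2 such regions. In the other direction, naive stood 2-fold below both other libraries in 125 exonic regions (7.54%, against 6.05% of all regions), Th1 in 208 (12.5%, against 13.7%) and Treg in 99 (5.97%, against 8.32%).

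No single exonic region passed a test on its reads. An exact binomial test between 2 libraries, adjusted over the 10000 regions by Benjamini-Hochberg, which compares libraries and not cell types, called 0 exonic regions in all 3 pairs. The smallest adjusted p among exonic regions was 0.167, for Cst11, lower in Treg than in naive. Without adjustment, 20 exonic regions (1.21%) were higher and 0 lower in Th1 than in naive at a p under 0.05, against 1.37% and 0.16% of all regions. Treg was higher than naive in 9 (0.543%) and lower in 82 (4.95%), against 0.32% and 8.08%. Treg was higher than Th1 in 0 and lower in 66 (3.98%), against 0% and 5.01%. The lean to 1 direction was thus also seen over all regions. At this depth even 7 naive against 0 Th1 reads, or 16 Treg against 0 Th1 reads, did not reach a p under 0.05 in this test. The counts of 0 are therefore not read as a result. Equal table totals were chosen for this test after seeing the data. There 27 exonic regions (1.63%) were higher and 27 lower in Treg than in naive, against 1.15% and 3.61% of all regions. Th1 was higher than naive in 29 (1.75%) and lower in 0, against 1.91% and 0.08%. Treg was higher than Th1 in 0 and lower in 39 (2.35%), against 0.06% and 2.78%.

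The regions with the highest values in exon 1 belonged to Hdgf, a growth factor gene, and Zdhhc7, which encodes a palmitoyltransferase. Hdgf (mm9 chr3:87717957-87718269) held 3 reads in the naive library, 6 in Th1 and 11 in Treg, which gave 2.99, 10.1 and 3.88 as values. Zdhhc7 (chr8:122611510-122612054) held 2, 4 and 19 reads, with values of 1.99, 6.72 and 6.70. In Hdgf the Th1 value was the highest, and in Zdhhc7 Th1 and Treg were level with naive lowest. Efcab6, a calcium-binding protein gene, had values of 4.98 in naive, 6.72 in Th1 and 2.82 in Treg cells. Fsip2, which encodes a protein of the sperm tail, had 4.98, 6.72 and 2.11, and Gm7168 4.98, 5.04 and 3.52. The intervals of the 3 libraries overlapped in each of these 5 regions.

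In exon 2 the highest mean was that of Fabp5, a fatty acid-binding protein gene (chr3:10014670-10015118), with values of 2.99 in naive (0.616 to 8.73), 13.4 in Th1 (5.81 to 26.5) and 2.82 in Treg cells (1.22 to 5.56). Its Th1 value lay above the Treg value with no overlap of their intervals, and it overlapped the naive interval. Sec23a, a coat protein of vesicles leaving the endoplasmic reticulum (chr12:60107902-60108232), had 2.99, 10.1 and 5.29. Mapkapk2, a kinase activated by p38 that stabilises cytokine messages (chr1:132955160-132955431), had 4.98, 8.40 and 3.52. Adamtsl2, a secreted matrix glycoprotein gene, had 3.98, 8.40 and 4.58, and 2010300C02Rik 6.97, 6.72 and 4.23. Th1 was the highest library in 4 of these 5 regions. The mean gives most weight to Th1 reads, each worth 1.68, so a high rank favours regions with Th1 reads.

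In exons 3 to 5, exon 4 of Ncln, which encodes a membrane protein of the endoplasmic reticulum (chr10:80955355-80955716), had the highest mean of all exonic regions, 7.32, from values of 4.98 in naive, 13.4 in Th1 and 3.52 in Treg cells. Exon 3 of 4930465M20Rik had 5.98, 10.1 and 5.29. Exon 3 of Acox2, a peroxisomal oxidase gene, had 2.99, 10.1 and 5.64. Naive cells led in exon 3 of Eng, the gene of the TGF-beta co-receptor endoglin (chr2:32524915-32525257), with 7.97 against 5.04 in Th1 and 5.64 in Treg. Exon 3 of Ankrd33 had 5.98, 6.72 and 4.93, the most even of the 5.

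In exons over 5 the leading regions were exon 7 of the kelch-protein gene Klhl30, exon 6 of the cytochrome P450 gene Cyp20a1 and exon 9 of Atp6v1b1, a subunit of the vacuolar proton pump. Klhl30 had values of 7.97 in naive, 8.40 in Th1 and 3.52 in Treg cells. Cyp20a1 had 3.98, 10.1 and 4.93, and Atp6v1b1 4.98, 10.1 and 3.17. Exon 89 of Dync2h1, the heavy chain of the motor that moves cargo back along cilia (chr9:6928572-6928873), had 4.98, 11.8 (4.73 to 24.2) and 1.41 (0.384 to 3.61), so that its Th1 and Treg intervals did not overlap. Exon 23 of Cdan1 had 2.99, 10.1 and 4.23. Treg was the lowest library in 3 of these 5 regions, and naive was the lowest in Cyp20a1 and Cdan1.

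**Figure D4:**
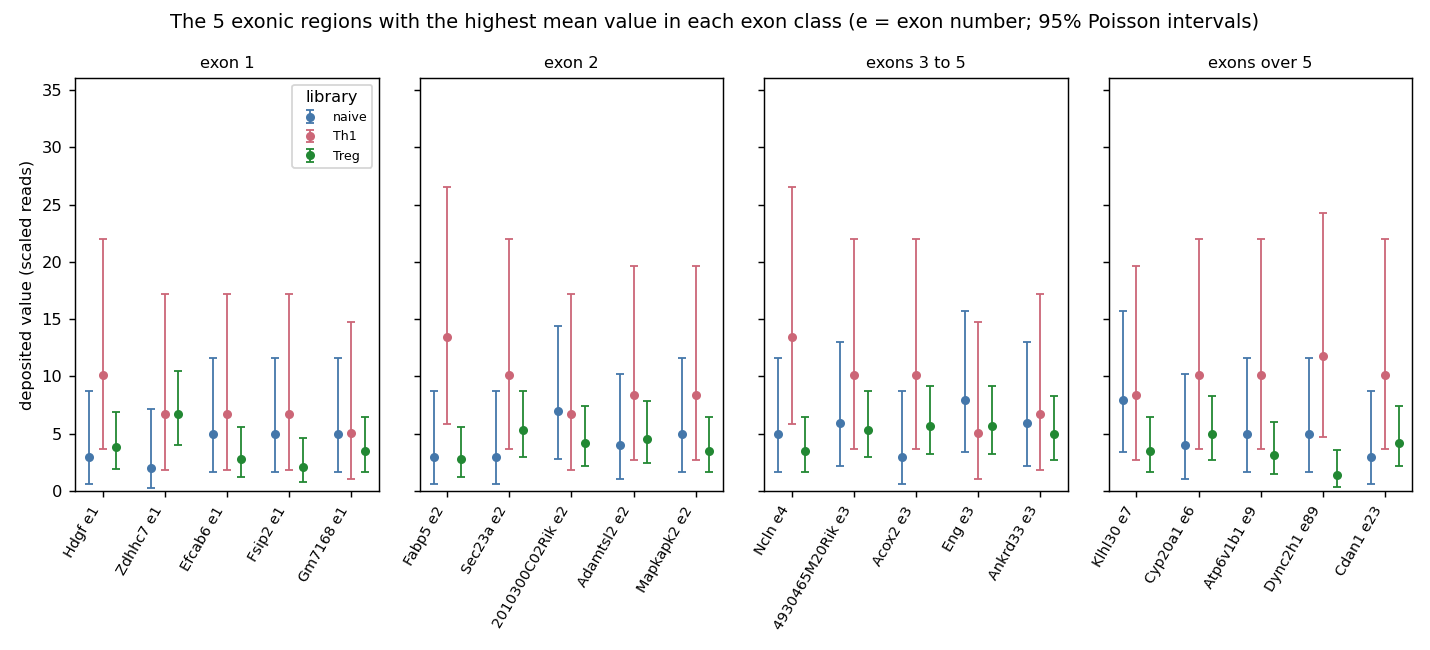
Deposited values (vertical axis, scaled reads) in the naive, Th1 and Treg libraries of the 5 exonic regions with the highest mean value in each exon class; points are values, bars are 95% Poisson intervals and e gives the exon number. Th1 values reach 13.4 in Fabp5 and Ncln, and the intervals of the 3 libraries overlap in most regions.

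The regions with the largest ratios between libraries were chosen for that ratio, so their values are a description. Exon 11 of Polr2b, a core subunit of RNA polymerase II (chr5:77760017-77760318), held 0 naive, 5 Th1 and 10 Treg reads. The Th1 value was 8.40 (2.73 to 19.6), and 0 naive reads allow a value of up to 3.67. Exon 5 of Gm6939 held 0, 5 and 8 reads. Exon 11 of Ttc7b, which encodes a subunit of a lipid kinase complex, held 0, 4 and 15 reads. In these 3 regions the naive library was empty and both others were read, and the naive and Th1 intervals overlapped.

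The reverse pattern, naive reads without Th1 reads, was found in exon 3 of Wnt5a, a secreted Wnt ligand (chr14:29326404-29326623), exon 9 of Chl1, a neural adhesion molecule, and exon 4 of Abi3bp, an extracellular matrix protein. Each held 7 naive and 0 Th1 reads, beside 9, 8 and 4 Treg reads in that order. The naive interval, 2.80 to 14.4, overlapped the values of up to 6.20 that 0 Th1 reads allow.

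Between Treg and naive cells, exon 7 of Tnpo1, a nuclear import receptor (chr13:99640151-99640438), held 0 naive, 1 Th1 and 21 Treg reads. Its Treg interval, 4.58 to 11.3, lay above the naive limit of 3.67. Exon 5 of Ankrd11, a chromatin regulator gene, held 0, 4 and 13 reads, with a Treg interval of 2.44 to 7.84 that overlapped the naive one. In the other direction, exon 3 of Cst11, a cystatin-family gene (chr2:148594344-148594541), held 7, 2 and 0 reads. Its naive interval, 2.80 to 14.4, lay above the limit of 1.30 that 0 Treg reads allow. It was the only exonic region without a Treg read. Exon 8 of Ano4, of the anoctamin membrane proteins, held 6, 2 and 1 reads and exon 1 of the odorant receptor gene Olfr1415 6, 1 and 1, in each case 17.0-fold lower in Treg with an interval of 2.06 to 780.0.

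Between Treg and Th1 cells, exon 3 of Net1 held 4 naive, 0 Th1 and 16 Treg reads. Exon 8 of Tecpr2, an autophagy gene, held 4, 0 and 15, and exon 10 of Plekha6 3, 0 and 15. Their Treg values of 5.64, 5.29 and 5.29 lay under the 6.20 that 0 Th1 reads allow, so a difference was not detectable at this depth. Exon 8 of Zmat4 held 5, 4 and 1 reads. Exon 4 of Ipo9, an importin gene, and exon 6 of Upf3b, of the surveillance of messages with early stop codons, each held 3, 4 and 1. These 3 were 19.1-fold lower in Treg than in Th1, with an interval of 1.89 to 939.5.

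**Figure D5:**
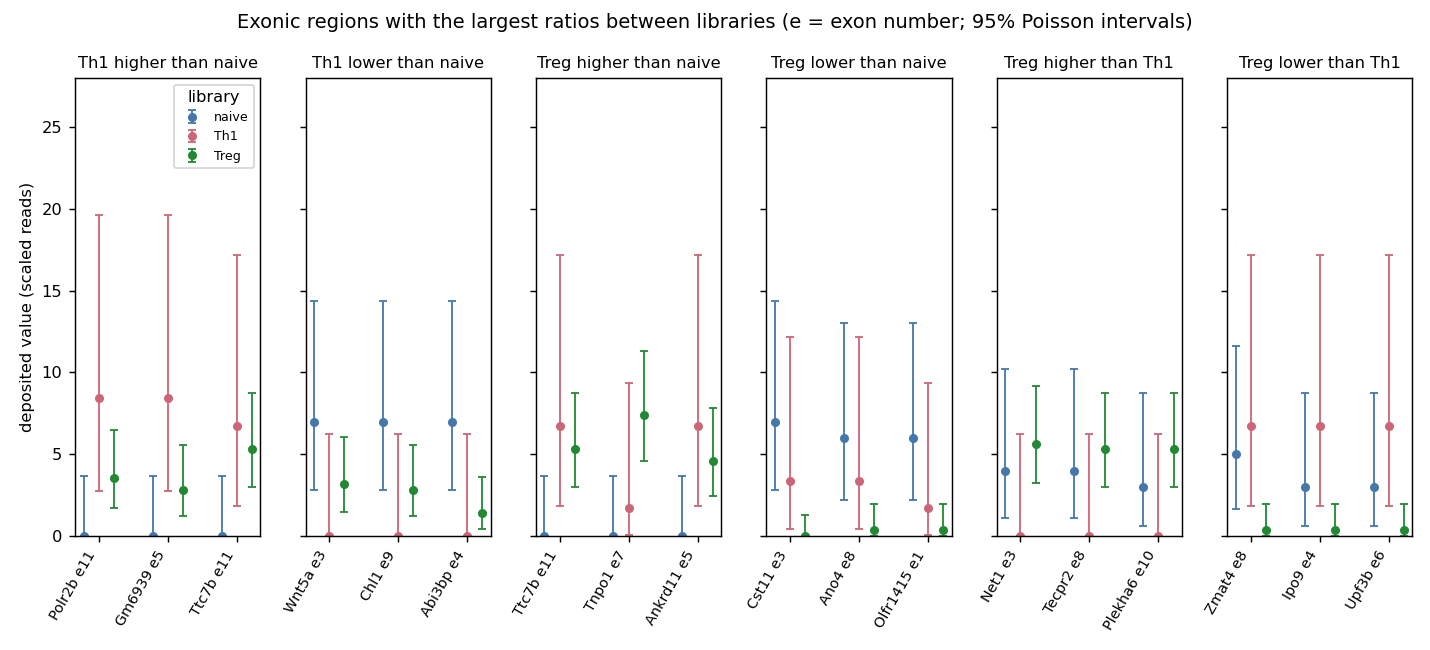
Deposited values (vertical axis, scaled reads) in the naive, Th1 and Treg libraries of the 3 exonic regions with the largest ratio in each direction of each pair; bars are 95% Poisson intervals and e gives the exon number. Each region with a high ratio has 0 or 1 reads in the lower library, as in Tnpo1 (0 naive against 21 Treg reads) and Cst11 (7 naive against 0 Treg reads).

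A few genes of T helper lineages had an exonic region. Over the table, 1518 of 5377 genes with a region of any kind had an exonic one. Of 22 Th17 genes, 9 had a region of any kind and 2 an exonic region. Exon 2 of Il17a, the cytokine by which Th17 cells are sorted (chr1:20722245-20722432), had values of 4.98 in naive (1.62 to 11.6), 3.36 in Th1 (0.407 to 12.1) and 1.76 in Treg cells (0.572 to 4.11), highest in naive and lowest in Treg with overlapping intervals. Acsbg1, an acyl-CoA synthetase gene, had 2 regions, in exons 4 and 11, and the one in exon 11 had 4.98, 3.36 and 4.23. Of 20 Th1 genes, 5 had a region of any kind and 2 an exonic region. Exon 4 of Gzmb, the granzyme of cytotoxic granules, had 4.98, 3.36 and 2.82. Exon 8 of Il27ra, the IL-27 receptor, had 1.99, 3.36 and 1.76. Of 20 Treg genes, 4 had a region of any kind and 1 an exonic region. It was the integrin gene Itgae, with 4.98, 3.36 and 3.17 in exon 14. With so few genes, nothing particular to these lists is read from the counts. None of the Th1 and Treg regions passed 2-fold between any libraries. Il17f, Ccr6, Il23r, Ifng, Tbx21 and Foxp3 had no exonic region in the table.

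Of 31 genes of T cell receptor signalling and activation, 2 had an exonic region, and their leading libraries differed. Exon 5 of Cd5, an inhibitory receptor of T cells (chr19:10799430-10799669), held 1 read in naive, 5 in Th1 and 7 in Treg cells, which gave 0.996, 8.40 and 2.47 as values. Exon 21 of Nfkb1, the NF-kappa-B subunit p105 (chr3:135253099-135253374), held 2, 1 and 16 reads, with values of 1.99, 1.68 and 5.64. Cd5 was thus highest in Th1 and Nfkb1 in Treg, each by more than 2-fold over both other libraries. The intervals of the libraries overlapped in both genes.

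Of 36 genes of DNA methylation and chromatin, 4 had an exonic region. Exon 19 of Dnmt3a, the de novo methyltransferase, had values of 3.98 in naive, 3.36 in Th1 and 4.58 in Treg cells. Exon 4 of Uhrf1, which brings the maintenance methyltransferase to replicated DNA, had 1.99, 5.04 and 3.52. Exon 47 of the corepressor gene Ncor1 had 1.99, 6.72 and 2.11, and exon 2 of the histone deacetylase gene Hdac4 2.99, 1.68 and 2.82. Uhrf1 and Ncor1 were 2-fold higher in Th1 than in naive, and the other 2 passed 2-fold in no pair.

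Kinases and phosphatases gave 7 regions in 6 of 36 genes, of which 4 were 2-fold higher and 0 lower in Th1 than in naive, against 19.4% and 29.0% of all regions. With 7 regions and no test, nothing particular to these genes is read from the count. Exon 7 of Flt4, a receptor of lymphatic growth factors, held 0 naive, 4 Th1 and 11 Treg reads. Exon 14 of the growth factor receptor gene Erbb2 had values of 2.99, 8.40 and 3.52, exon 3 of Pik3ca, a catalytic subunit of PI3 kinase, 2.99, 6.72 and 3.52, and exon 2 of Rptor, the scaffold of the mTOR complex, 3.98, 5.04 and 4.23. Cytoskeleton and adhesion genes gave 11 regions in 9 of 34 genes, 9 of them in exons over 5, against 896 of all 1658 exonic regions. Among them were the spectrin genes Spnb4, with 5.98, 5.04 and 2.82 in exon 3, and Spnb2, with 3.98, 5.04 and 3.52 in exon 24, the integrin gene Itga1, with 4.98, 5.04 and 3.17 in exon 7, and the talin gene Tln2, with 2.99, 3.36 and 4.23 in exon 11.

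The exonic regions of gene families are given by class, beside 104, 216, 442 and 896 of all 1658 exonic regions. The number of exons per gene was not taken into account, so no difference between families is read from these counts. Collagen, laminin and metalloprotease genes had 27 exonic regions in 24 genes, with 5 in exon 2, 2 in exons 3 to 5 and 20 in exons over 5. Zinc finger genes, whose finger arrays often sit in a late exon, had 20 in 18 genes, with 1, 4, 10 and 5 over the 4 classes. Solute carriers had 33 in 31 genes, all in exon 3 or later (11 and 22). Their median mean values were 3.06, 2.87 and 2.93, against 3.15 over all exonic regions. Treg over naive was -0.28 (-0.63 to 0.08), -0.42 (-0.86 to 0.02) and -0.25 (-0.58 to 0.09) in the same order, and these wide intervals include the value of all exonic regions. Among these families the highest means were those of exon 2 of Adamtsl2, exon 5 of Zfp334, with values of 6.97 in naive, 5.04 in Th1 and 4.58 in Treg cells, and exon 3 of the amino acid transporter gene Slc38a5, with 3.98, 8.40 and 4.58.

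Odorant and vomeronasal receptor genes, whose coding sequence usually lies in a single exon, had 10 exonic regions. Of these, 9 were in exon 1, against 104 of all 1658 exonic regions. Together they held 42 naive, 21 Th1 and 58 Treg reads. Treg over naive was -1.03 (-1.63 to -0.42), and 5 of the 10 were 2-fold lower in Treg than in naive and 0 higher, against 22.2% and 8.33% of all regions. At equal table totals 3 were lower and 1 higher. Olfr1276 had values of 5.98, 3.36 and 1.41 and Olfr487 4.98, 3.36 and 1.76, while Olfr430 had 3.98, 5.04 and 2.11. In the pseudogene Olfr634-ps1 the Th1 value was the highest, with 1.99, 10.1 and 1.41. These genes have many close copies, and the handling of reads with several matches was not given in the sources used here. Without them, the other 95 regions of exon 1 stood at -0.32 for Treg over naive (-0.51 to -0.13).

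The kind of gene changed with the exon number. Predicted genes and pseudogenes by name made up 12.5% of the regions in exon 1, 16.2% in exon 2, 12.4% in exons 3 to 5 and 3.91% in exons over 5, against 9.43% of all regions. In RefSeq, 88.3% of the matched genes in exon 1 were protein-coding, 91.9% in exon 2, 95.3% in exons 3 to 5 and 98.7% in exons over 5; 1499 of 1518 genes were matched by symbol or synonym. A gene with few exons can supply no region of high number, so this order follows in part from the grouping. Exon 1 also lost regions to the label promoter: 108 promoter regions carry the number of exon 1 and are not counted as exonic. In those 108, Treg over naive was -0.37 (-0.54 to -0.20), close to exon 1 itself.

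Chromosome X had the highest share of exonic regions, 50 of its 200 (25.0%), against 11.7% to 21.5% on the autosomes. Treg over naive was -0.58 in these 50 regions (-0.85 to -0.31), against -0.18 in the 1608 autosomal ones (-0.22 to -0.13), with a mean Treg value of 2.33 (2.08 to 2.59) on X. Introns on X stood at -0.45 (-0.62 to -0.28) and autosomal introns at -0.42, and their intervals overlapped. The X and autosomal intervals of exonic regions did not overlap.

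Most genes had a single exonic region: 1388 had 1, 120 had 2 and 10 had 3. For 554 genes (36.5%) the table also holds an intronic or promoter region. In the myosin heavy chain gene Myh7 the 3 regions, in exons 19, 22 and 38, held 3, 4 and 4 naive reads, 0, 1 and 1 Th1 reads and 15, 9 and 10 Treg reads. Th1 had the lowest value in all 3 of them, with 0, 1.68 and 1.68 against 2.99, 3.98 and 3.98 in naive and 5.29, 3.17 and 3.52 in Treg. It was also lowest in exons 5, 6 and 7 of the keratin gene Krt79. There the Th1 values were 3.36, 1.68 and 1.68, against 4.98, 1.99 and 4.98 in naive and 3.52, 3.17 and 3.17 in Treg. The intervals of the libraries overlapped in each of these Myh7 and Krt79 regions. Krt79 was read in neighbouring exons, which lie within chr15:101761019-101762363. In Vwf, the clotting factor carrier, exons 11, 13 and 26 held 2, 2 and 4 naive, 0, 2 and 2 Th1 and 10, 14 and 7 Treg reads. In Polr2b the regions disagreed: exon 11 had no naive read, while exons 5 and 13 had 3 each. In Arhgef5, Th1 reads were 2, 1 and 4 in exons 2, 7 and 13.

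Across the 130 genes with 2 or 3 exonic regions, all regions of a gene were 2-fold lower in Th1 than in naive in 10 genes and all were higher in 4, while 11 genes had regions in both directions and 38 had no region past 2-fold. For Treg against naive the counts were 2 lower, 0 higher and 3 in both directions, and 76 genes had no region past 2-fold. For Treg against Th1 they were 2, 2 and 8, and 65 genes had none. Over all single regions, 29.0% were lower and 19.4% higher in Th1 than in naive. For Treg against naive these shares were 22.2% and 8.33%, and for Treg against Th1 21.0% and 17.0%. How many genes unlinked regions would give was not computed, so no agreement within genes is read from these counts. In 7 cases 2 regions of a gene carry the same exon number, and whether they lie in the same exon was not checked. Nlrc3 and Tmem110, from these 7, and Muc5b, a gene with 3 regions, were picked after their values were seen. The 2 regions numbered exon 4 of Nlrc3, an inhibitory NOD-like receptor gene, lie at chr16:3957170-3957575 and chr16:3962412-3962746. They held 3 naive and 3 Th1 reads each, and 6 and 13 Treg reads. The 2 numbered exon 8 of Tmem110 held 5 and 6 naive, 0 and 3 Th1, and 10 and 11 Treg reads. Regions of the same exon number thus differed in whether the Th1 library was read. In Muc5b the region numbered exon 2 (chr7:149057475-149057814) lies beyond those numbered 34 and 35 (chr7:149052636-149053277), so its exon numbers do not follow the order of positions.

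Exonic regions in markers of other cells are listed with no reading of their number. Of 8 B cell markers, 5 had a region of any kind and 2 an exonic region. Exon 2 of the kinase gene Blk had values of 1.99 in naive, 3.36 in Th1 and 3.88 in Treg cells. Exon 2 of Pax5 had 0.996, 3.36 and 3.52. The protocadherins, cell adhesion genes of neurons, gave 3 regions in 2 genes, among them exon 1 of Pcdha1 with 2.99, 6.72 and 3.52. Of 8 myeloid and dendritic markers, 3 had a region of any kind and none an exonic region. CD8 and NK, erythroid and naive T cell markers had no region of any kind in the table.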

How the data were processed

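Methylated DNA was captured from 250 ng per library and sequenced, 1 library per population. The deposited table gives 10000 regions on mm9, each with a location, an exon number and a signal per library; per the submitters' processing notes FastQC and Bowtie 0.12.7 were used, and the choice and scaling of regions were not given in the sources used here. In every library with reads, 100% of the deposited signal values were whole multiples of 1 constant within 1e-06, and reads were computed from it. Exonic regions were rows with location exon. Folds used 0.5 added to both values and a threshold of 1 on the log2 scale. Intervals are exact Poisson (values) and exact binomial (ratios). The exact binomial test was tested on simulated data. Named regions were the 5 highest means per class, the 3 largest ratios per pair and direction, up to 4 members of each gene list, and 5 of the genes with most exonic regions. The members, gene lists and comparisons were chosen with earlier results of these data known. Python 3.11.15, numpy 2.4.6, pandas 2.3.3 and scipy 1.17.1 were used.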

Additional observations from a re-analysis of the deposited data

How the results depend on the processing

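With 5 added to both values, exonic regions past 2-fold numbered 29 higher and 26 lower in Th1 than in naive, 3 and 4 in Treg against naive, and 5 and 22 in Treg against Th1. At a log2 threshold of 1.5 they numbered 177 and 210, 86 and 129, and 174 and 110, in the same order. Shares over all regions were not computed at these 2 settings, so these counts are not set against a background. The exact binomial test gave 0 in all 6 comparisons. At equal table totals, Treg was higher than naive in 312 and lower in 135, and lower than Th1 in 197. The shares of all regions there were 15.2%, 12.3% and 15.2%. With at least 10 reads per region, 169 of 1443 (11.7%) were lower in Treg than in naive, against 17.5% of introns under the same filter. At equal totals, Treg over naive was 0.0028 in exon 1, 0.26 in exon 2, 0.17 in exons 3 to 5 and 0.21 in exons over 5, and Treg over Th1 was 0.10 in exon 1, -0.056 in exon 2, 0.071 in exons 3 to 5 and 0.10 in exons over 5. With at least 10 reads, a filter that counts the reads compared, Treg over naive was -0.11 in exons 3 to 5 and -0.11 in exons over 5. Changes with scaling follow from the new constants; other causes were not tested. Keeping 1 region per gene or leaving out predicted genes and pseudogenes moved none of the 22 class and count results, and neither did leaving out chromosome X (12 results) or adding promoter regions with an exon number (16), the last 2 chosen after seeing the data. Moved meant a count changed over 1.5-fold, a ratio outside its first interval, or a median shifted by over 1 standard deviation across regions. The rule for medians is loose. With promoter regions added, 2 exon 1 intervals no longer held 0. They were Th1 over naive (-0.35 to -0.0009) and Treg over Th1 (-0.36 to -0.04). Rows with a single location were not run apart, because no row gives several. No paired analysis was possible because each population has 1 library, and for the same reason no library could be left out. The median of 2 Th1 reads per region limits single-region ratios.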
